A study of Mus musculus with 19 samples.

Results

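Annexins and S100 proteins form a group of calcium-regulated genes that are commonly read together with the lectin gene Lgals1 and the adhesion receptor gene Cd44 as features of antigen-experienced, memory-type T cells. The 10 genes described here are Anxa1, Anxa2, Anxa5, Anxa6, S100a4, S100a6, S100a10, S100a11, Lgals1 and Cd44, out of 20620 genes tested. Their probes were found by exact match of the gene name carried in the scanner output, which gave 15 probes, and all 10 genes had at least 1 probe that passed the filter on dim probes. The genes were chosen with earlier results of the same arrays known, and Anxa1 was picked from its lower level in GFP-RFP+ than in GFP-RFP- cells. Values of that comparison are therefore a description, and the call that the fit over all genes made there is no test of Anxa1.

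CD4 T cells were taken from spleen and lymph nodes. The mice were adult females of C57Bl/6 background, all carrying the genotype Tg IL-2-GFP x FOXP3mRFP. In these mice a green fluorescent protein reports interleukin-2 and a red one reports Foxp3, the defining transcription factor of regulatory T cells. The arrays fell into 4 populations by colour: 5 arrays of GFP-RFP- cells (neither reporter), 5 of GFP+RFP- cells (IL-2 reporter), 5 of GFP-RFP+ cells (named regulatory in the labels) and 4 of GFP+RFP+ cells (both reporters, replicates 1, 3, 4 and 5). One label tag calls all 19 samples conventional, and the groups here follow the colours. Cells without the red reporter need not be memory cells, because no surface marker of memory is given as a sorting criterion. The sample titles repeat the same replicate numbers across populations, but nothing in the labels ties the replicates to separate animals. The p-values then measure only how far these samples spread, which can be technical.

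Annexins bind acidic membrane lipids when calcium rises, and several of them pair with an S100 partner: annexin A2 with S100A10, and annexin A1 with S100A11. Annexin A1 is known as a mediator that restrains inflammation through formyl peptide receptors, and annexin A5 as the protein used to stain exposed phosphatidylserine. S100 proteins are small EF-hand proteins that change shape on binding calcium, and S100A4 and S100A6 are associated with cell motility. Lgals1 encodes galectin-1, a lectin that binds glycans on activated T cells and is known from regulatory T cells. Cd44 encodes the hyaluronan receptor that is raised on T cells after activation and stays high on memory cells.

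The probes show what the arrays could distinguish among close relatives, and those of S100a4 and S100a6 are shown because these neighbouring genes encode similar proteins. Both probes lie on the plus strand of chromosome 3 in the mm9 coordinates of the files, at chr3:90409734-90409793 for S100a4 and chr3:90418160-90418219 for S100a6, in coding sequence of the EF-hand region. Capitals mark the longest run of bases that both probes contain.
S100a4: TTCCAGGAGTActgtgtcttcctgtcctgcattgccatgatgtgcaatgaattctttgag
S100a6: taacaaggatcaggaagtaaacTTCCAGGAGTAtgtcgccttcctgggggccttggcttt
The shared run was 11 bases long, the longest found between probes of different genes in the set, out of 60 bases in each probe. In RefSeq's gene order S100a4 lies between S100a2 and S100a5, S100a6 between S100a5 and S100a7a, and S100a11 beside S100a10.

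The Anxa1 probe that entered the fit and 3 Cd44 probes are shown because probes of these genes gave different readings. The Anxa1 probe lies in coding sequence on the minus strand at chr19:20449722-20449781. The Cd44 probes lie on the minus strand of chromosome 2, at chr2:102654278-102654337 (across the stop codon, in capitals), chr2:102672645-102672704 (an inner probe) and chr2:102677971-102678030 (a probe listed for 3 of the 4 RefSeq transcripts).
Anxa1: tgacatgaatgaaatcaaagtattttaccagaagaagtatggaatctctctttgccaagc
Cd44 stop codon probe: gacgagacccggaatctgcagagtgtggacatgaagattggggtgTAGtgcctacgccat
Cd44 inner probe: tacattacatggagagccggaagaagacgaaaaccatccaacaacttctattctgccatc
Cd44 probe of 3 transcripts: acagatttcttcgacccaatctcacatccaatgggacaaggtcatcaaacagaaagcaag
A second Anxa1 probe lies at chr19:20447938-20447997 and a second S100a4 probe at chr3:90409908-90409967, and both contain AATAAA, the usual polyadenylation signal. The Cd44 probe of the fit, which had the highest mean log2 signal, lies at chr2:102651398-102651457. The stop codon probe reached higher signals on single arrays (up to 30517, against 11509).

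The arrays differed in how much they detected. The share of probes that the scanner software flagged as well above background ran from 37.8% to 44.9% in GFP-RFP- arrays, 29.9% to 41.3% in GFP+RFP-, 21.8% to 39.5% in GFP-RFP+ and 25.9% to 37.8% in GFP+RFP+. The T cell genes Cd4, Cd3d and Cd3g were well above background on all 19 arrays. Foxp3 itself read between 42.5 and 76.0 in GFP-RFP- arrays, 38.7 and 87.2 in GFP+RFP-, 19.3 and 13968 in GFP-RFP+ and 37.0 and 130 in GFP+RFP+ (processed signal), so the probe did not separate the red populations from the others on most arrays. Il2 was well above background on 2 of 5, 2 of 5, 0 of 5 and 1 of 4 arrays in the same order. In bulk samples such as these, fewer cells of a type and less RNA per cell cannot be told apart.

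The 10 genes divided by family in how steadily they were detected. S100a4, S100a6, S100a10, Lgals1 and Cd44 were well above background on all 19 arrays, S100a11 on 18, Anxa6 on 16, Anxa5 on 14, Anxa1 on 6 and Anxa2 on 4. Over the 10 genes together, 44 of 50 readings (88%) were detected in GFP-RFP- arrays, 44 of 50 (88%) in GFP+RFP-, 35 of 50 (70%) in GFP-RFP+ and 30 of 40 (75%) in GFP+RFP+. No array of either red population detected more than 8 of the 10. Both arrays that detected all 10 were GFP+RFP-. With the software's more lenient flag for a positive and significant signal, the Anxa1 probe of the fit was called on 8 arrays in place of 6.

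**Figure D1:**
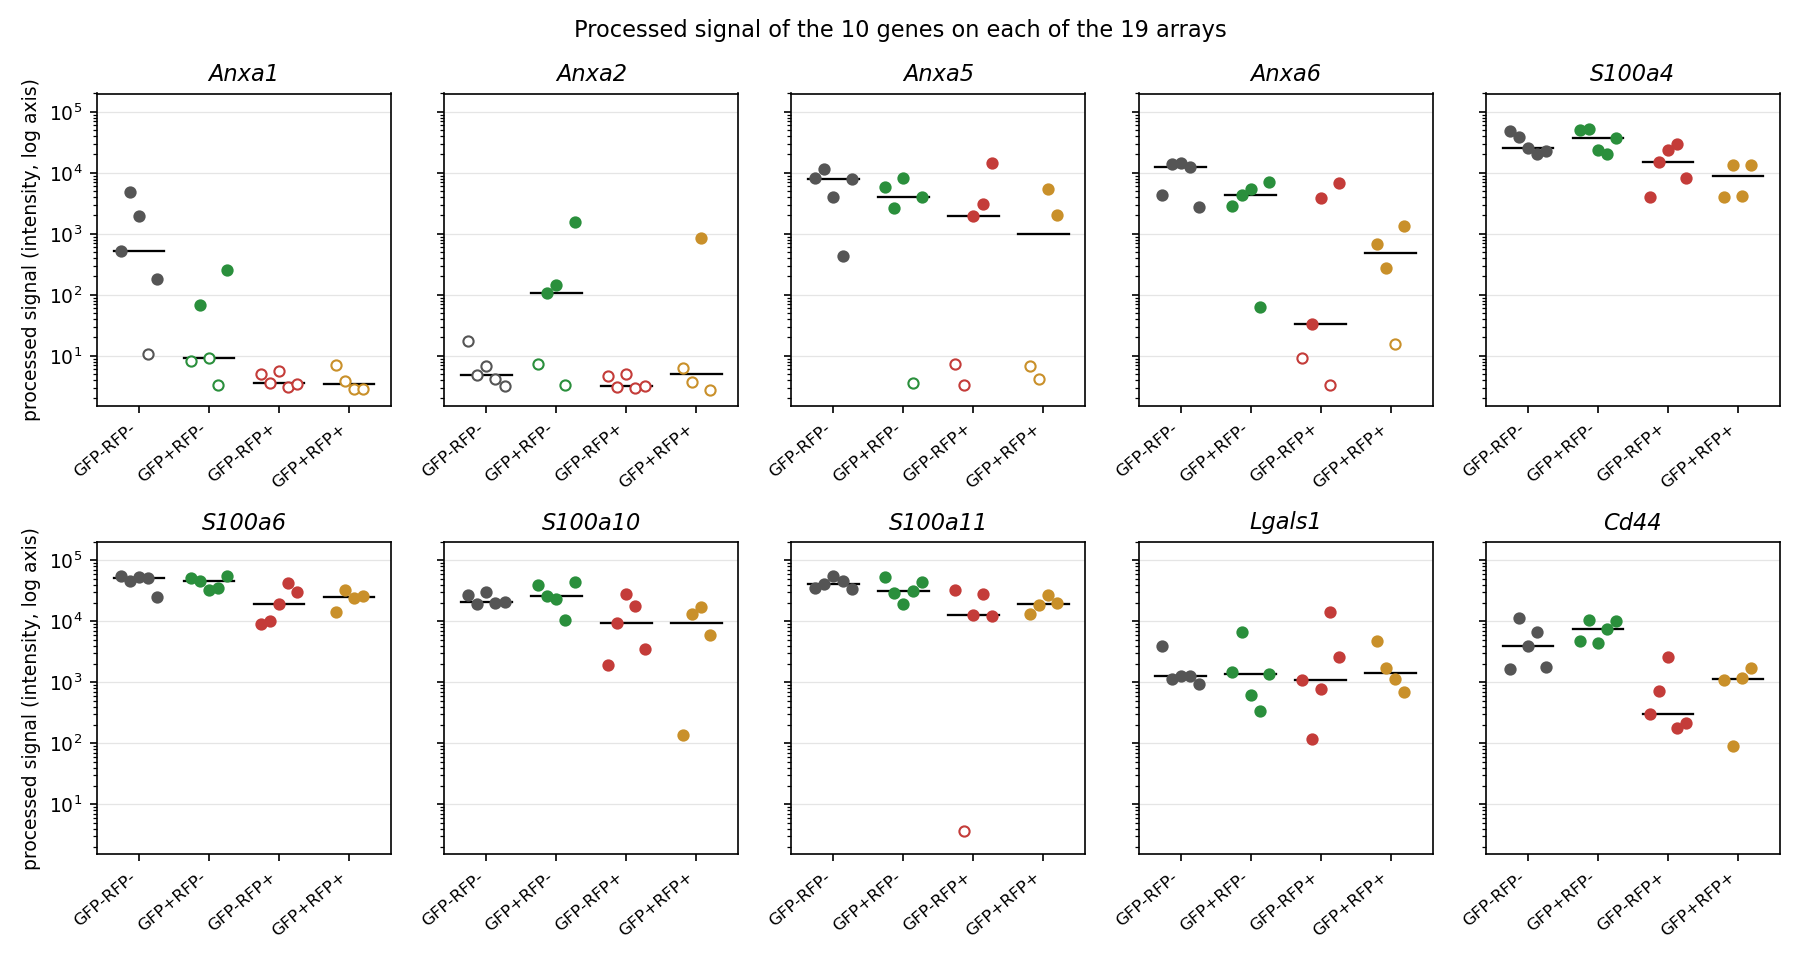
Processed signal (log axis) of each gene's probe of the fit on each of the 19 arrays, by reporter population. Filled points are well above background, open points are not, and bars are group medians. S100a4 and S100a6 stay within a narrow band, whereas Anxa5 spans 3.31 to 14505 and Anxa1 is detected only among the arrays without the red reporter.

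Detection of the 10 genes went together with detection on the array as a whole. The array with the lowest share of detected probes (GFP-RFP+ replicate 1, 21.8%) detected 6 of the 10 genes, and the one with the highest (GFP-RFP- replicate 5, 44.9%) detected 9. GFP-RFP+ replicate 2 also detected 6, at a share of 31.2%. GFP-RFP+ replicate 3 reached a share of 39.5%, within the GFP-RFP- range, and detected 8. The part of array-wide detection in the members' counts was not tested.

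**Figure D2:**
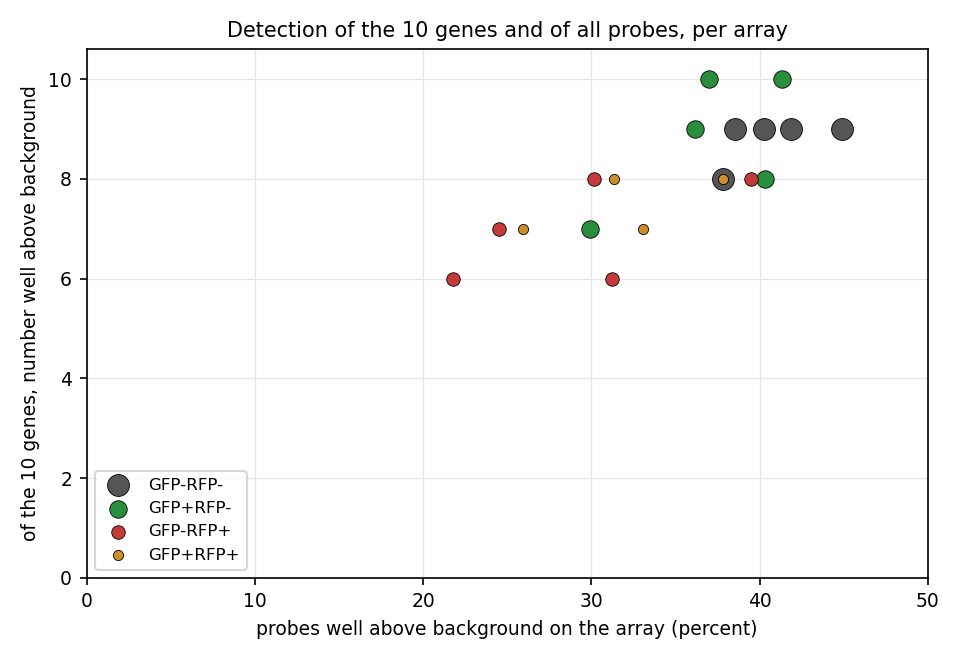
Number of the 10 genes well above background (vertical axis) against the percent of all probes well above background (horizontal axis), 1 point per array, with larger points drawn beneath smaller ones. The GFP-RFP- arrays lie at 8 or 9 genes and shares from 37.8%, and the arrays at 6 genes are both GFP-RFP+.

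Anxa1, the gene of the calcium- and lipid-binding protein annexin A1, was detected mainly in GFP-RFP- cells. Its processed signal in GFP-RFP- replicates 1 to 5 was 528, 4799, 1955, 10.5 and 184, with replicate 4 not well above background. In GFP+RFP- replicates 1 to 5 it was 8.09, 66.8, 9.11, 3.34 and 257, of which replicates 2 and 5 were well above background. In GFP-RFP+ cells it was 5.08, 3.64, 5.63, 3.09 and 3.42, and in GFP+RFP+ cells 7.04, 3.88, 2.84 and 2.88, with no array of either population well above background. The 4 detected GFP-RFP- readings lay above every reading of both red populations, whereas the GFP-RFP- and GFP+RFP- readings overlapped.

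Levels were set on a common scale as log2 signal minus the array's 75th percentile, taken over 6612 probes well above background on every array. On that scale the Anxa1 mean of GFP-RFP- cells was -5.23 ± 3.27 (SD, n = 5), that of GFP+RFP- cells -9.20 ± 2.37 (n = 5), that of GFP-RFP+ cells -10.64 ± 0.66 (n = 5) and that of GFP+RFP+ cells -10.40 ± 0.82 (n = 4). The scaled readings of GFP-RFP- and GFP-RFP+ overlapped, because GFP-RFP- replicate 4 sat at -10.35. GFP-RFP+ minus GFP-RFP- cells gave -5.42 ± 1.30 (SE), at least 11.5-fold lower when the measured GFP-RFP- mean is set against GFP-RFP+ arrays raised to the lowest signal detected on each. The difference was -6.44, -3.94 and -5.18 within slides 1, 2 and 3, and -5.48 without the arrays that detected under 30% of their probes. It was -4.82 with each array's percent of detected probes as a covariate and -2.18 after normexp background correction, which is a smaller difference than that bound.

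The other Anxa1 probe was detected in GFP-RFP- cells only, on a different set of arrays. It measured the same samples and passed the filter through GFP-RFP- arrays alone, so it is no separate test. It read 6.61, 476, 526, 522 and 46.7 in GFP-RFP- replicates 1 to 5, where replicates 2 to 5 were well above background. It stayed between 2.99 and 8.12 on the other 14 arrays, none of them well above background. In GFP-RFP- cells replicate 1 was detected by the coding probe only and replicate 4 by the polyadenylation-end probe only. Over all 19 arrays 3 were detected by both probes, 3 by the coding probe alone, 1 by the other alone and 12 by neither. The probes correlated at 0.54 (Pearson) over the 19 arrays, and at 0.02 without the 2 farthest arrays.

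Anxa2, which encodes the partner of S100A10 in a membrane-bound complex, was the least often detected of the 10 genes. Its signal in GFP-RFP- cells was 17.6, 4.77, 6.84, 4.11 and 3.16, and in GFP-RFP+ cells 4.63, 3.12, 5.10, 2.91 and 3.19, with no array of either well above background. Where the IL-2 reporter was on, GFP+RFP- replicates 1 to 5 read 7.38, 107.42, 146, 3.29 and 1555, and GFP+RFP+ replicates 1, 3, 4 and 5 read 6.32, 3.78, 861 and 2.70. All 4 arrays that detected Anxa2 (GFP+RFP- replicates 2, 3 and 5 and GFP+RFP+ replicate 4) were thus from populations with the IL-2 reporter, and in both populations other arrays read as low as those without it.

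Anxa5 and Anxa6 were bright on most arrays and missing on a few. Anxa5 read 8375, 11752, 4045, 427 and 7915 in GFP-RFP- cells and 5928, 2684, 8310.4, 3.58 and 4067 in GFP+RFP- cells. It read 7.41, 3.31, 1953, 3054 and 14505 in GFP-RFP+ cells and 6.92, 4.10, 5465 and 2001 in GFP+RFP+ cells. Every population therefore had bright arrays, and in 3 of the 4 at least 1 array was not above background. On the scaled axis GFP+RFP- replicate 4 sat at -11.08, against -2.51 to -0.59 in the other 4 GFP+RFP- arrays.

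Anxa6, whose protein acts at endosomal and plasma membranes, read 4306, 14071, 14514, 12328 and 2712 in GFP-RFP- cells and 2853, 4274, 5451, 63.1 and 7103 in GFP+RFP- cells. It read 9.26, 33.3, 3845, 3.28 and 6758 in GFP-RFP+ cells and 686, 274, 15.3 and 1341 in GFP+RFP+ cells. The GFP-RFP+ arrays split between a bright pair and 3 at or near background, so their mean of -5.74 ± 4.75 (SD, n = 5) describes neither. The difference from GFP-RFP- cells was -4.82 ± 1.85 (SE), and -1.94 without the arrays under 30% detected.

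S100a4 and S100a6 were the steadiest of the 10 genes. S100a4 read 48593, 39040.3, 25145, 20542 and 22508 in GFP-RFP- cells and 49784, 51912, 23482, 20363 and 37547 in GFP+RFP- cells. It read 4066, 15054, 23973, 29913 and 8277 in GFP-RFP+ cells and 4087, 13519, 4143 and 13518 in GFP+RFP+ cells. Before scaling, all 4 GFP+RFP+ arrays lay below all 5 GFP+RFP- arrays. The same held for S100a6 and Cd44, and for the 75th percentile of the arrays (4140 to 5963 against 7768 to 15291). The share of all genes that did so before scaling is not given here, so nothing is read from this separation. After scaling the means were 0.99 ± 0.45, 1.46 ± 0.35, 1.00 ± 0.99 and 0.52 ± 0.79 (SD, n = 5, 5, 5 and 4) in the same order of populations, and the readings overlapped.

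S100a6 was likewise detected on every array. It ranged from 25348 to 54499 (median 50882) in GFP-RFP- cells, from 33266 to 55922 (median 45859) in GFP+RFP- cells, from 9194 to 41757 (median 19175) in GFP-RFP+ cells and from 14238 to 32124 (median 24837) in GFP+RFP+ cells. On the scaled axis its means were 1.59 ± 0.32, 1.80 ± 0.33, 1.52 ± 0.71 and 2.14 ± 0.28 (SD). The unscaled order, with red populations lower, and the scaled order, with GFP+RFP+ highest, stand beside a 75th percentile that was itself lower on red arrays (median 7259 in GFP-RFP+ and 5479 in GFP+RFP+, against 15352 in GFP-RFP- and 13185 in GFP+RFP-). The scaled readings of the populations overlapped.

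S100a10, whose protein is the light chain of the annexin A2 complex, ranged from 19209.6 to 30742 in GFP-RFP- cells and from 10348 to 43616 in GFP+RFP- cells. It was more variable in the red populations, from 1949 to 27866 in GFP-RFP+ cells and from 134 to 17102 in GFP+RFP+ cells, where replicate 1 alone gave the low value. S100a10 was thus detected on every array, including the 15 on which the probe for its partner Anxa2 was not. S100a11, which encodes the partner of annexin A1, ranged from 33414 to 55449 in GFP-RFP- cells, from 18914 to 52701 in GFP+RFP- cells and from 12961 to 26874 in GFP+RFP+ cells. In GFP-RFP+ cells it read 32946, 3.66, 12554, 28157 and 12071, so replicate 2 was the only array of the 19 without it.

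Lgals1 varied widely between arrays of every population, and its readings overlapped between the populations before and after scaling. Its signal ranged from 941 to 3959 (median 1272) in GFP-RFP- cells, from 337 to 6749.7 (median 1368) in GFP+RFP- cells, from 118 to 14266 (median 1092) in GFP-RFP+ cells and from 686 to 4805 (median 1421) in GFP+RFP+ cells. The 4 medians were close together before scaling. After scaling the red populations averaged higher, at -2.32 ± 2.28 (SD, n = 5, GFP-RFP+) and -1.71 ± 1.40 (n = 4, GFP+RFP+), against -3.34 ± 0.79 and -3.33 ± 1.33 (n = 5 each) in GFP-RFP- and GFP+RFP-.

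By its probe of the fit, Cd44, the hyaluronan receptor gene, read lower on most red arrays before scaling. It read 1678, 11509, 3921, 6705 and 1777 in GFP-RFP- cells and 4729, 10346, 4475, 7414 and 10066 in GFP+RFP- cells. It read 303, 714, 2640.3, 177 and 218 in GFP-RFP+ cells and 1078, 91.5, 1196 and 1727 in GFP+RFP+ cells. All 5 GFP+RFP- arrays lay above all 4 GFP+RFP+ arrays, both before and after scaling. After scaling, Cd44 was the 1 member of 10 without overlap there, beside 7.81% of all genes, so nothing is read from it. The share of all genes before scaling is not given here. The GFP-RFP- and GFP-RFP+ readings overlapped, through GFP-RFP+ replicate 3.

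The scaled Cd44 mean of GFP+RFP- cells was -0.83 ± 0.70 (SD, n = 5), that of GFP-RFP- cells -1.92 ± 1.102 (n = 5), that of GFP+RFP+ cells -2.96 ± 2.03 (n = 4) and that of GFP-RFP+ cells -3.80 ± 1.49 (n = 5). GFP+RFP+ minus GFP+RFP- cells gave -2.12 ± 0.91 (SE), which did not pass the test over all genes (limma, adjusted p = 0.24), and the difference was below 0 under all 5 other scalings, from -3.37 to -1.26. It was -1.11 without GFP+RFP+ replicate 3 and -0.80 with the mean of the gene's probes. Between GFP-RFP+ and GFP-RFP- cells the difference was -1.88 ± 0.86. It was 0.12 in the authors' deposited series table, 0.12 after quantile normalization and 0.08 with the mean of the gene's probes. Its direction thus depended on the scaling and the probe.

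Other Cd44 probes did not repeat the order of populations given by the probe of the fit. The stop codon probe read 18077, 1601, 12.3, 283 and 23.5 in GFP-RFP- cells and 15384, 12418, 564, 7.66 and 12706 in GFP+RFP- cells. It read 17.3, 19.2, 30517, 15.5 and 26355 in GFP-RFP+ cells and 12669.9, 115, 82.9 and 13.4 in GFP+RFP+ cells. Every population held both very bright and near-background arrays, and 14 of 19 arrays were well above background. The correlation with the probe of the fit was 0.08 (Pearson, 19 arrays that share their labelling and scan). The inner probe stayed between 7.91 and 39.1 and was detected on 7 arrays. The probe listed for 3 of the 4 transcripts stayed between 2.78 and 12.7 and was detected on none.

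The S100a4 probe near the polyadenylation signal also read differently from the coding probe. It was well above background on all 10 arrays without the red reporter, from 1255 to 10118. In GFP-RFP+ cells it read 11.0, 65.0, 56.2, 4678 and 10.5, and in GFP+RFP+ cells 7.20, 6126, 3.05 and 3.11. The coding probe was well above background on all of these arrays, and the 2 probes correlated at 0.63 over the 19 arrays. With the mean of the gene's probes in place of the coding probe, the S100a4 difference between GFP-RFP+ and GFP-RFP- cells was -2.29.

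**Figure D3:**
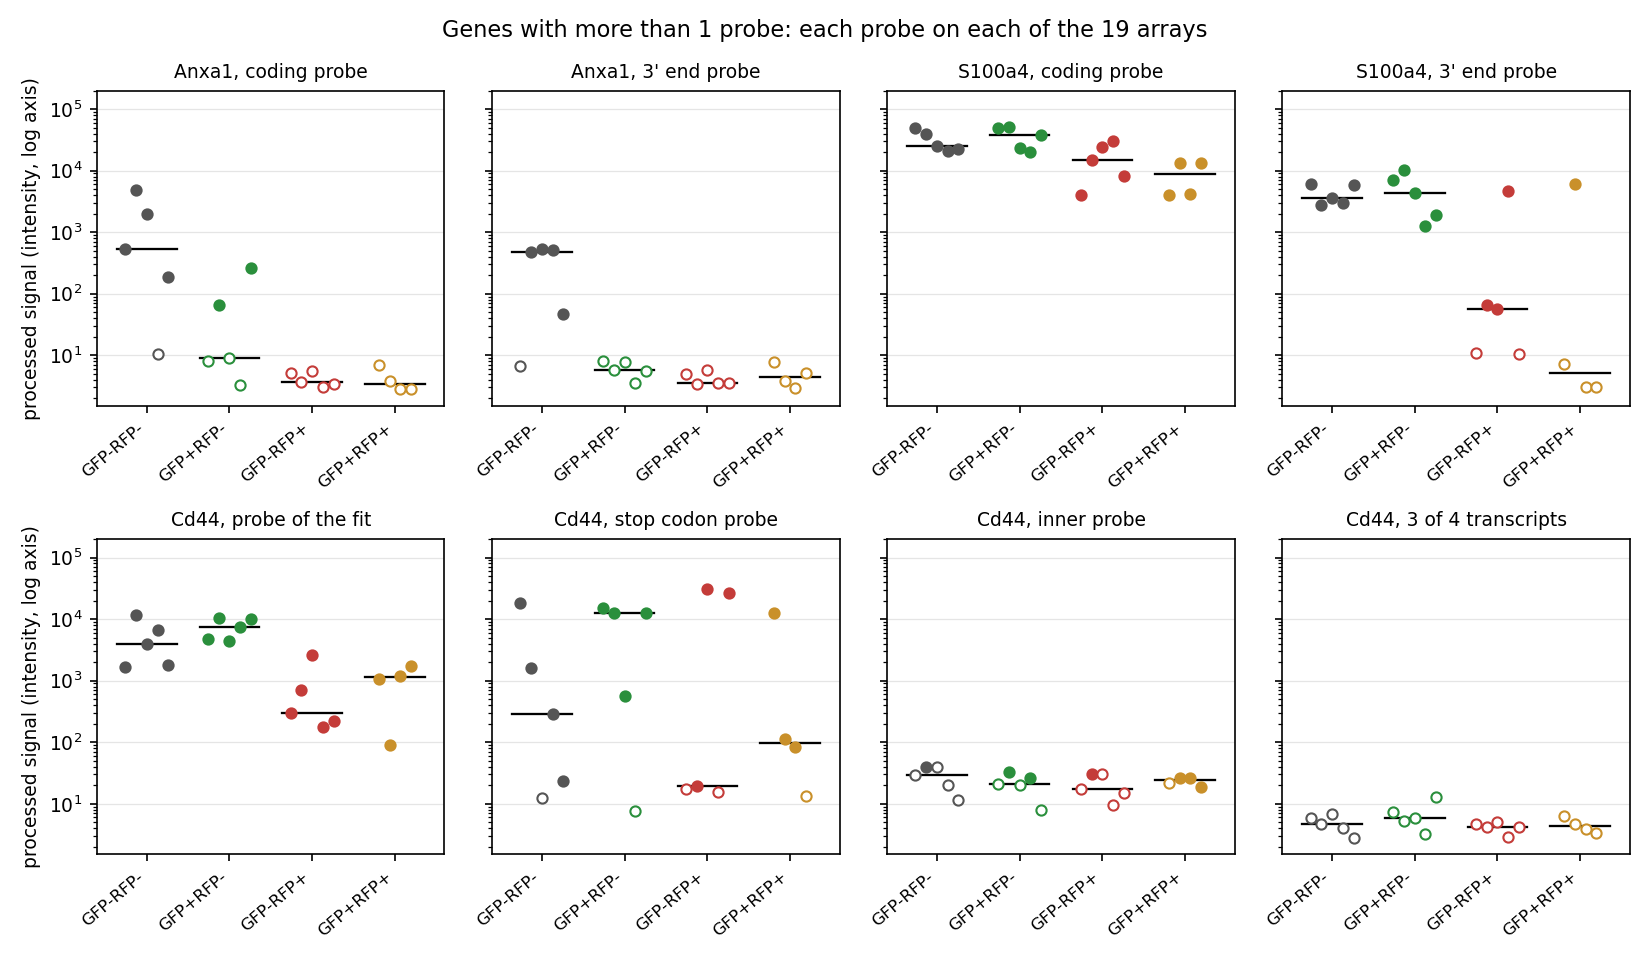
Processed signal (log axis) of each probe of Anxa1, S100a4 and Cd44 on each of the 19 arrays, by reporter population. Filled points are well above background, open points are not, and bars are medians. The S100a4 probe at the 3′ end reads 4678 and 6126 on 1 array of each red population and between 3.05 and 65.0 on the others, while the coding probe is bright throughout.

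Each comparison was fitted over all 20620 genes with limma, with calls at an adjusted p (Benjamini-Hochberg) under 0.05. Between GFP-RFP+ and GFP-RFP- cells the fit called 1 of the 10 genes (Anxa1), beside 1.7% of all genes (97 higher and 254 lower). Nothing is read from that count, since this comparison chose Anxa1. The other lower estimates were those of Anxa6 (-4.82 ± 1.85), Anxa5 (-2.67 ± 2.56), S100a11 (-2.38 ± 1.64) and Cd44 (-1.88 ± 0.86). Without GFP-RFP+ replicate 2 the S100a11 difference was -0.10 and the Anxa5 difference -1.24, and Anxa5 turned to 2.26 with the percent detected as a covariate. S100a4 differed by 0.00 ± 0.48, S100a6 by -0.07 ± 0.37 and S100a10 by -0.35 ± 0.96, and Lgals1 by 1.02 ± 0.96, which was -0.17 with no scaling between arrays and -0.14 without the arrays under 30% detected. The median of the 10 differences was -1.11, and that of all genes -0.29. Taking the percentile over all probes in place of the detected ones turned these medians to 0.19 and 1.02, and the calls over all genes to 3513 higher and 518 lower.

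The same Foxp3 reporter contrast among cells with the IL-2 reporter gave no call. Between GFP+RFP+ and GFP+RFP- cells limma called 0 of the 10 genes, beside 0.204% of all genes, and 1 of the 10 (Cd44) had an unadjusted p under 0.05, as did 17.4% of all genes. Cd44 was also the 1 member whose scaled readings did not overlap between the groups, against 7.81% of all genes, while in GFP-RFP+ against GFP-RFP- none of the 10 did, against 6.67%. S100a10 differed by -1.56 ± 1.02 (adjusted p = 0.44), which was -0.08 without GFP+RFP+ replicate 1. S100a4 differed by -0.94 ± 0.51 (adjusted p = 0.34), with -3.45 for the mean of its probes. Lgals1 differed by 1.62 ± 1.02 (adjusted p = 0.42), with 0.97 without GFP+RFP+ replicate 1 and 0.15 to 3.06 under other settings. Anxa1 differed by -1.20 ± 1.38 (adjusted p = 0.69), with both populations mostly at background and -0.32 without GFP+RFP- replicate 5.

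The IL-2 reporter gave no call among the 10 genes in either lineage. Between GFP+RFP- and GFP-RFP- cells limma called 0 of 10, beside 0.0097% of all genes. Anxa1 and Anxa2 had unadjusted p under 0.05, 2 of 10 against 5.14% of all genes, but this count is no test. Anxa1 was picked for its level in these same GFP-RFP- arrays, and Anxa2 passed the filter only through arrays with the IL-2 reporter. Anxa1 differed by -3.97 ± 1.30, cells with the reporter being lower (adjusted p = 0.78). It was -6.66, -3.42 and 0.31 within slides 1, 2 and 3. By the probe of the fit, the GFP+RFP- array of slide 3 thus read as its GFP-RFP- array did (257 against 184). The other Anxa1 probe read 5.58 against 46.7 there, well above background only in the GFP-RFP- array. Anxa2 was 3.51 ± 1.55 higher (adjusted p = 0.97), at least 3.22-fold by the bound used for Anxa1, with no GFP-RFP- array well above background. Cd44 was 1.09 ± 0.86 higher and S100a4 0.47 ± 0.48 higher. None of the 10 genes had groups that did not overlap, beside 2.4% of all genes.

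Between GFP+RFP+ and GFP-RFP+ cells limma called 0 of the 10 genes, beside 0.00485% of all genes, with 0 at an unadjusted p under 0.05 against 5.40% of all genes. None of the 10 had groups that did not overlap, beside 1.02%. The largest differences were those of S100a11 (2.76 ± 1.74, adjusted p = 0.93) and Anxa2 (2.37 ± 1.64, adjusted p = 0.93), and each rested on few arrays. Without GFP-RFP+ replicate 2 the S100a11 difference was 0.48, and without GFP+RFP+ replicate 4 that of Anxa2 was 0.43. No GFP-RFP+ array detected Anxa2, and the bound there was at least 1.27-fold. The test of whether the IL-2 reporter difference itself differed between lineages called 0 of 10, beside 0.0097% of all genes. Only Anxa1 had an unadjusted p under 0.05 there (4.22 ± 1.90, adjusted p = 0.999), and 4.92% of all genes did. Its value again uses the GFP-RFP- arrays from which Anxa1 was picked. No array of either red population detected Anxa1, so the red side of that value is a difference between background readings and its size is not measured.

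**Figure D4:**
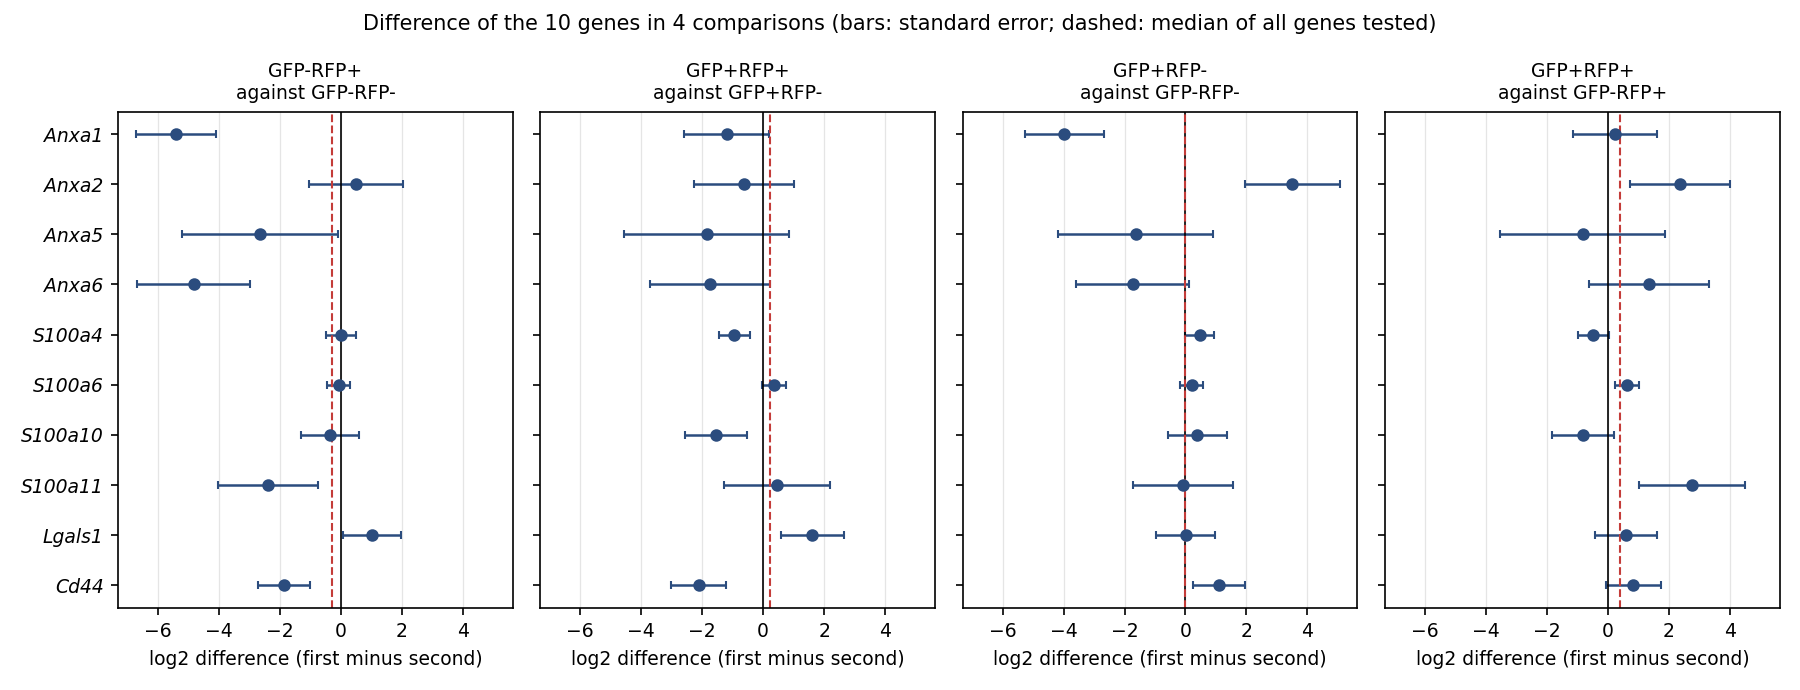
Log2 difference (horizontal axis, first population minus second) of each gene in the 4 comparisons, with bars of 1 standard error, a solid line at 0 and a dashed line at the median of all genes tested. Anxa1 stands at -5.42 and -3.97 against GFP-RFP- cells, and S100a4, S100a6 and S100a10 stay within 1.56 of 0 in every comparison.

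Comparisons that share a population share its arrays: Anxa1 enters both comparisons with GFP-RFP- cells through the same 5 arrays, of which 4 detected it. Its values side by side were -5.42 (GFP-RFP+) and -3.97 (GFP+RFP-) against those arrays. Anxa6 showed -4.82 and -1.74, and Cd44 -1.88 and 1.09.

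The members differed widely in their spread within a population. The pooled SD within groups was 0.45 log2 units for S100a6 and 0.69 for S100a4, against a median of 0.81 over the 5680 genes well above background on all arrays. It was 1.37 for Cd44, 1.55 for S100a10 and 1.56 for Lgals1. It was 2.72 for S100a11, whose SD was highest in GFP-RFP+ cells (5.21). The annexins had 2.15 for Anxa1, 2.56 for Anxa2, 3.08 for Anxa6 and 4.27 for Anxa5, against a median of 1.67 over all genes tested. The SD of Anxa5 was above that of 97.4% of all genes tested.

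**Figure D5:**
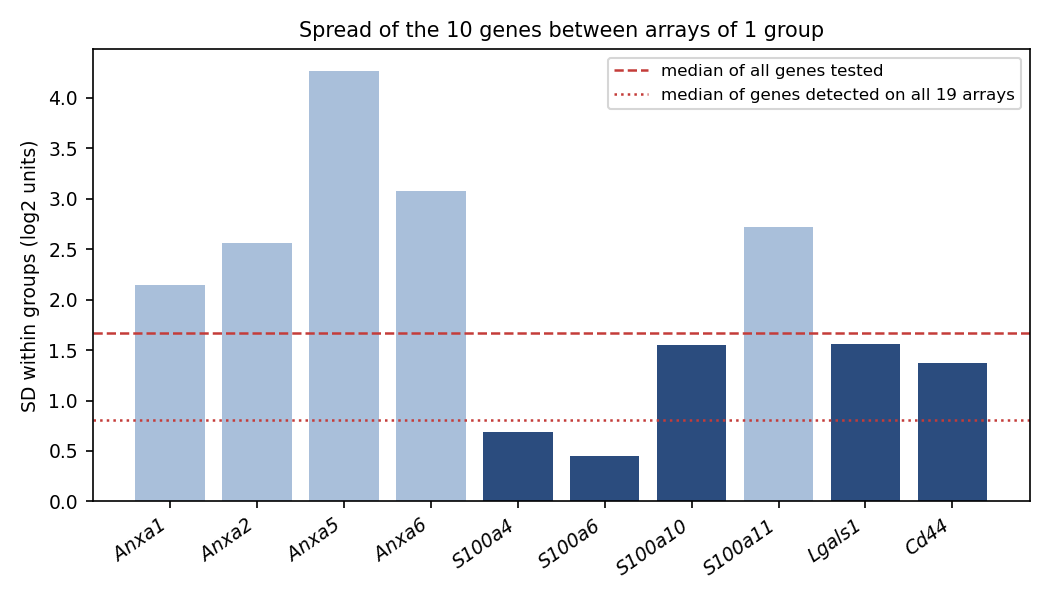
Pooled standard deviation within populations (log2 units) of the 10 genes. Dark bars are genes well above background on all 19 arrays, pale bars are the others, and lines mark the medians of all genes tested (1.67) and of genes detected on all arrays (0.81). S100a6 and S100a4 are the only bars below both lines.

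Correlations between the 10 genes across arrays were mostly low. Over the 45 pairs of members the Pearson correlation across the 19 arrays had a median of 0.07, from -0.53 to 0.52, and 1 pair exceeded 0.5. These values cannot tell whether the genes vary together. Anxa1 and Anxa2 were at background on most arrays, and probes of the same gene correlated at only -0.19 to 0.63. Genes most like the average of the 5 members detected on every array included Hpf1 (r = 0.71) and Rbm5 (0.69), among 5675 genes compared, with the unnamed transcripts NAP108184-1 and LOC100048117 at 0.68. Genes most like Anxa1 included Cops7a (0.87), Smpd2 (0.86) and Zfp384 (0.86), besides 1 noncoding interval probe (0.89), among 20580 compared. These correlations are descriptions over 19 arrays that also share scaling and array-wide detection, and both lists were selected from the highest of all genes compared.

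Among the remaining annexin genes 5 of 8 could be tested and none was called in any of the 4 comparisons or in the interaction. In GFP-RFP+ against GFP-RFP- cells 3 of the 5 differences were above 0, with a median of 1.24, against -0.29 for all genes. That median was 0.05 with no scaling between arrays (-1.48 for all genes) and 2.54 with the percentile over all probes (1.02). The smallest p were those of Anxa8 (1.32, adjusted p = 0.14) and Anxa10 (1.24, adjusted p = 0.21). Both were dim, and their unscaled readings overlapped between the groups. Anxa11 was well above background on 17 arrays and read from 485 to 1049 in GFP-RFP- cells against 22.6 to 404 in GFP-RFP+ cells (log2 difference -1.86, adjusted p = 0.23). Anxa7 was found on 12 arrays and Anxa4 on 5, with an Anxa4 difference of 3.84 in that comparison (adjusted p = 0.37). Anxa10 was present on all 19, between 23.5 and 150.

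Among the remaining S100 genes 7 of 13 could be tested, again without a call in any comparison. S100a8 and S100a9, the calgranulin genes of neutrophils and monocytes, were detected on each of the 5 GFP-RFP- arrays, from 8818 to 27017 and from 14222 to 39565. In GFP+RFP- cells they were detected on 3 and 4 of 5 arrays, in GFP-RFP+ cells on 5 and 3 of 5, and in GFP+RFP+ cells on 2 and 4 of 4. The S100a8 difference between GFP+RFP- and GFP-RFP- cells was -6.65 (adjusted p = 0.64). S100a1 was dim on all 19 arrays and 1.81 higher in GFP-RFP+ than in GFP-RFP- cells (adjusted p = 0.075). S100a13 was on all 19 arrays, and S100a5 and S100a7a, which flank S100a6, on 1 and 0.

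Of the other galectins 4 of 8 could be tested and none was called. Lgals9 was found on 12 arrays, and Lgals3, the galectin of macrophages, on 2. Of 16 genes for binding partners and the cortical cytoskeleton 12 were tested and none was called. The smallest p in GFP-RFP+ against GFP-RFP- cells was that of Plg (2.17, adjusted p = 0.089), which 4 arrays detected. Plg passed the filter only through the red populations, so this value is no test of it. Its signal was at most 27.5 on any array. Moesin (Msn), which links CD44 to actin, was well above background on all 19 arrays and differed by 0.27 between GFP-RFP+ and GFP-RFP- cells (adjusted p = 0.66). Ahnak, a scaffold bound by the annexin A2 and S100A10 complex, was on all 19 as well, between 764 and 13492. The formyl peptide receptor genes Fpr1, Fpr2 and Fpr3 were detected on 2, 1 and 1 arrays.

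Among 20 other genes of activated and memory T cells 17 were tested, and 1 was called, in a comparison that called 1.7% of all genes. A single call is not read as a result about the list. Itgb1, the beta-1 integrin chain that is high on memory T cells, was lower in GFP-RFP+ than in GFP-RFP- cells by a log2 difference of -7.19 ± 1.55 (SE; limma, adjusted p = 0.033). Its signal ran from 451 to 7610.4 in GFP-RFP- cells and from 3281 to 11405 in GFP+RFP- cells, and 1 of 5 arrays detected it in GFP-RFP+ cells and 2 of 4 in GFP+RFP+ cells. In that comparison 12 of the 17 differences were below 0, as were 57.1% of those of all genes, with a median of -0.90 against -0.29 for all genes. Between GFP+RFP+ and GFP+RFP- cells 15 of 17 were below 0, as were 44.1% of all genes, with a median of -1.43 against 0.22 and no call. Between GFP+RFP- and GFP-RFP- cells 13 of 17 were above 0, while 51.3% of all genes were below 0, with a median of 0.61 against -0.02 and no call.

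All 12 genes of naive T cells were tested, and 1 was called, in a comparison that called 1.7% of all genes. Igfbp4, a growth factor binding protein gene of naive T cells, was lower in GFP-RFP+ than in GFP-RFP- cells by -7.14 ± 1.17 (limma, adjusted p = 0.0094). There 11 of 12 differences were below 0, as were 57.1% of those of all genes, with a median of -2.13 against -0.29. Under the percentile over all probes the medians of the memory and naive lists in that comparison were 0.41 and -0.82, against 1.02 for all genes. Between GFP+RFP- and GFP-RFP- cells 11 of 12 naive genes were below 0 as well, beside 51.3% of all genes, with a median of -0.93 and no call. The memory list lay mostly above 0 there.

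Markers of other cells were present in the sorts. The summed signal of 15 myeloid and granulocyte markers, as a percent of each array's 75th percentile, ran from 926 to 1361 in GFP-RFP- arrays, 796 to 1272 in GFP+RFP-, 1060 to 2459 in GFP-RFP+ and 1429 to 2770.3 in GFP+RFP+. Itgam was the brightest of these markers. Before scaling it read 72402 to 109804, 92374 to 106385, 59181 to 132249 and 66372 to 104659 in the same order. The 75th percentile that divides the sums was lower on red arrays, so the sums do not measure the number of myeloid cells. Itgam and Csf1r were detected on all 19 arrays, Lyz2 on 14, Lyz1 on 3, Adgre1 on 2 and Ltf on 1. In GFP-RFP+ against GFP-RFP- cells 7 of the 12 tested were below 0 and 5 above, with no call. Above 0 were Elane at 1.76, Itgam at 1.17 (limma, adjusted p = 0.094), Lyz2 at 0.39, Csf1r at 0.10 and Cd14 at 0.05. The lowest, besides Ngp, were Ly6g at -6.44 (limma, adjusted p = 0.067) and S100a9 at -4.53. Mpo (-1.72), Fcgr3 (-1.49), S100a8 (-1.48) and Camp (-1.07) were also below 0. Ly6g was well above background on 5, 5, 1 and 2 arrays of GFP-RFP-, GFP+RFP-, GFP-RFP+ and GFP+RFP+. The granulocyte gene Ngp was detected in all 5 GFP-RFP- samples and in 1 sample of each other population. It read from 2572 to 15758 in GFP-RFP- cells and its difference in GFP-RFP+ cells was -7.13 (adjusted p = 0.053).

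The 9 B cell markers summed to between 12.6% and 101% of the 75th percentile in GFP-RFP- arrays, 24.6% and 184% in GFP+RFP-, 3.88% and 141% in GFP-RFP+ and 4.20% and 7.45% in GFP+RFP+. Cd79b, a chain of the B cell receptor, was lower in GFP-RFP+ than in GFP-RFP- cells, by -6.34 (limma, adjusted p = 0.043). It was the only B cell marker called there, beside 1.7% of all genes, and Ms4a1 was detected on 1 array. Of the 8 B cell genes tested 4 were below 0 there and 4 above, the latter being Fcer2a (2.48), Blnk (2.11), Ebf1 (1.81) and Pax5 (0.71). The 8 NK and CD8 T cell markers summed to between 16.7% and 130% in GFP-RFP- arrays, 22.5% and 47.1% in GFP+RFP-, 5.96% and 108% in GFP-RFP+ and 3.88% and 33.8% in GFP+RFP+, and 7 of 8 erythroid cell and platelet markers on the array to between 268% and 814%, 7.49% and 441%, 1.49% and 1265%, and 15.1% and 682% in the same order. The 10 T cell identity genes summed to between 954% and 1124%, 918% and 1516%, 881% and 1857%, and 627% and 1136%, with all 10 detected on every GFP-RFP- array and 8, 7 and 6 on every array of the others. Markers of other cells were thus detected in all 4 populations. Their part in the Anxa1 difference was not tested.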

How the data were processed

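Messenger RNA of 19 samples was measured on one-colour arrays after column extraction, global PCR amplification of cDNA and Cy3 labelling, per the labels. Per the file headers, the authors deposited intensity values from Agilent Feature Extraction 10.7.3.1, with background subtracted and no scaling between arrays. They also deposited a series table of log2 values (normalization: not given in the sources used here).

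Outlier spots (3296) were left out, and log2 signal was set against each array's 75th percentile over 6612 probes well above background on every array. A probe entered when at least 4 arrays had it well above background (28101 of 55681). The probe of highest mean log2 signal stood for its gene. One limma fit (3.58.1, R 4.3.3) of 4 groups, tested on simulated data, gave the differences. The number of arrays limits the precision.

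The members and lists were chosen with earlier results of these arrays known. Named are all 10 members, list genes that were called or had the smallest p of their list in a comparison, and the reporter genes. Other list genes were named after their values were seen. Probe coordinates are those of the files (mm9), and gene order comes from RefSeq (GRCm38.p6). Some genes most like the members are not reported here.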

Additional observations from a re-analysis of the deposited data

Results flagged for a closer look

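The 10 genes in 4 populations gave 40 groups of 4 or 5 arrays. In 7 of the 40 the highest or lowest array lay farther from the others than Dixon's 95% critical value allows. That value assumes normal readings, whereas several of these lay at background, and the genes share arrays. The share of flagged groups over all genes is not given here, so the count of 7 is not read as an excess. Values are on the scaled log2 axis. Anxa5 was low in GFP+RFP- replicate 4 (-11.08, the others at -2.51 to -0.59), and Anxa6 was low on the same array (-6.94, the others at -2.39 to -0.89), which detected 29.9% of its probes. S100a11 was low in GFP-RFP+ replicate 2 (-10.03, the others at 0.10 to 2.84) and high in GFP+RFP+ replicate 4 (2.40, the others at 1.65 to 1.75). Cd44 was low in GFP+RFP+ replicate 3 (-6.00, the others at -2.09 to -1.79). GFP-RFP- replicate 1 was high for Lgals1 (-1.96, the others at -3.95 to -3.43) and for Anxa2 (-9.77, the others at -11.85 to -11.25), where none of the 5 arrays was well above background.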

How the results depend on the processing

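The count of members called between GFP-RFP+ and GFP-RFP- cells (1, Anxa1, which that comparison chose, so the counts describe the fits and are no measure of stability) was 0 with no filter on dim probes, with probes detected on all arrays (5 members left, without Anxa1), with scan day as a block, with percent detected as a covariate, within each of the 3 slides and without the arrays under 30% detected. It was 2 (Anxa1 and Cd44) with no scaling between arrays, an alternative chosen after seeing the data. Leaving out 1 array gave 0 to 1: the call held without replicate 2, 4 or 5 of GFP+RFP- cells, replicate 5 of GFP+RFP+ cells, replicate 4 of GFP-RFP- cells, or replicate 3 or 4 of GFP-RFP+ cells, and was lost without any of the other 12. It was 1 under the remaining settings. In the other comparisons no member was called under any setting. The median member difference between GFP+RFP+ and GFP+RFP- cells (-1.07) was 0.51 within slide 2, and the median interaction (0.51) was 2.32 there. Within a slide, single arrays were assumed to vary like the others. The cause of these changes was not tested.

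Between GFP-RFP+ and GFP-RFP- cells 351 genes were called (97 higher), against 4031 (3513 higher) for the percentile over all probes, 3473 (2842) for quantile normalization, 4849 (4110) for normexp, 3600 (2926) for the series table, 2021 (4) with no scaling, 1236 with slide as a block, 600 with detection on all arrays, 160 without the arrays under 30% detected, 5 with the covariate and 87, 0 and 0 within slides. Between GFP+RFP+ and GFP+RFP- cells 42 were called (18 higher), against 10 (0), 24 (7), 5021 (4740), 22 (5) and 252 (0) under the same 5 scalings, 138 with slide as a block, 748 with detection on all arrays, 196 without the arrays under 30% detected, 108 with no filter, 12 with scan day, 8 with the covariate and 0 within each slide. The other 3 comparisons had 2, 1 and 2 calls and 0 to 7, 0 to 16 and 0 to 4 under other settings. Leaving out 1 array gave 85 to 1165, 2 to 300, 1 to 12, 1 to 20 and 2 to 13.

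Same-numbered samples did not deviate together (27 correlations from -0.07 to 0.09), so the numbers were not taken as pairs. That does not show that the samples were unpaired. With a replicate block the calls were 198, 8, 3, 1 and 2 genes and 1, 0, 0, 0 and 0 members.

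Anxa1, Anxa2, Anxa5, Anxa6 and S100a11 have readings not well above background (153 of 190 member readings were, 161 by the lenient flag), where values carry no order. The median difference of all genes between GFP-RFP+ and GFP-RFP- cells (-0.29) ran from -1.48 to 1.02 over the scalings, so smaller differences depend on that choice.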
